A study of Arabidopsis thaliana with 18 samples.

Results

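The 2 replicate 3 arrays of unchilled leaves, 1 of Col and 1 of vte2, were compared with the 4 arrays of replicates 1 and 2 of the same genotypes, so the comparison used 6 of the 18 arrays of the series. The 6 arrays were identified by their titles, as those of 0 h LT (low temperature) treatment, but the division by replicate was not chosen blind to the values. Col is the Arabidopsis wild type Columbia, and vte2 is a mutant of this background that lacks homogentisate phytyltransferase and makes no tocopherols (vitamin E). All 6 samples were rosette leaves 9 to 11 of 4-week-old plants, with leaves of 3 plants pooled per array before extraction, grown at 22°C in 12 h of light (120 µmol photons per square meter per second) and at 18°C in 12 h of darkness. Leaves were taken 1 h into the light cycle from plants that had never been chilled, while the other 12 arrays came from plants kept at 7°C for 48 or 120 h. The separation of these replicate 3 arrays had been seen in the same data, and the tests below therefore set the size of the shift against the spread between arrays; they are not evidence that the arrays divide. The replicates were described as independent and no batch was named for them. The number of arrays limits the precision.

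A leaf changes much of its transcript pool within a day. Darkness and low sugar, sensed in part through the SnRK1 protein kinase and the loss of TOR kinase activity, raise genes of autophagy, of amino acid and lipid breakdown and of growth arrest, and these transcripts fall again when light returns and photosynthesis supplies sugar. Light acts in parallel through photoreceptors and the transcription factor HY5 and its homolog HYH, which raise flavonoid and photoprotection genes, and a circadian clock adds its own timing to the same genes. Touch, wounding, water loss and cold each raise overlapping sets of calcium-sensor, cell wall and dehydrin genes within minutes to hours, so that handling before freezing can also alter them.

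Replicate 3 had many genes on the other side of their range. Of 22810 probe sets, 1708 (7.49%) had higher and 1238 (5.43%) had lower values in replicate 3 than in replicates 1 and 2, which makes 2946 (12.9%) in all, in a limma fit with a genotype term (adjusted p under 0.05, Benjamini-Hochberg), and 1848 of these differed by more than 2-fold. Rises outnumbered falls, but the falls were larger at the extremes. A change over 4-fold was called for 215 rises and 318 falls, and one over 16-fold for 14 rises and 65 falls. The probe sets called lower had a median level of 7.83 (log2) in replicates 1 and 2 and of 6.09 in replicate 3, and those called higher went from 6.24 to 7.60. The median difference over all probe sets was 0.00, and the array medians lay between 4.98 and 5.14. In 8203 probe sets (36.0%) both replicate 3 arrays lay beyond all 4 others. Whole-array correlations were 0.992 between the replicate 3 arrays of the 2 genotypes, 0.934 to 0.947 between a replicate 3 array and any of the other 4, and 0.971 to 0.991 among those 4. The count of calls depended on single arrays: it was 855 without Col replicate 3, 783 without vte2 replicate 3, 1406 without Col replicate 1 and 1395 without Col replicate 2.

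**Figure D1:**
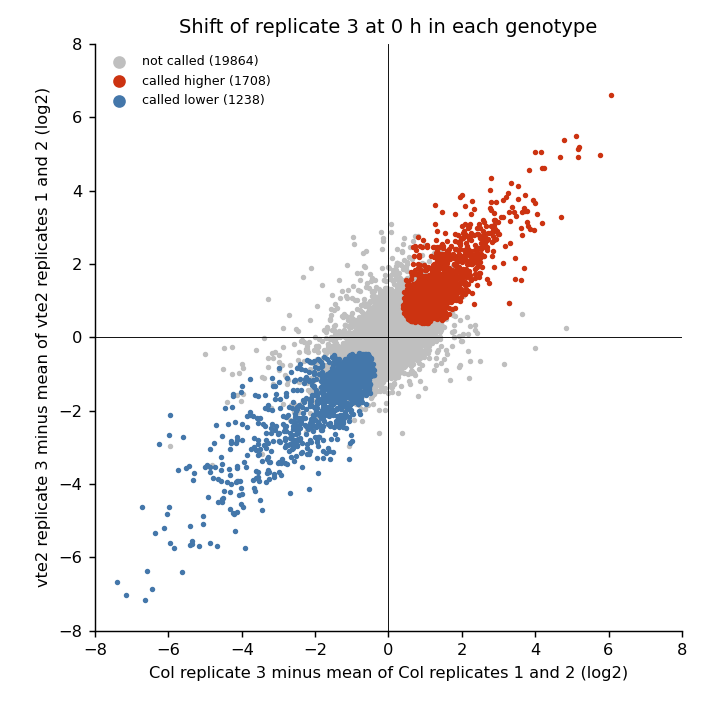
Each point is 1 of 22810 probe sets, with the shift of Col replicate 3 from the mean of Col replicates 1 and 2 on the x axis and the same shift in vte2 on the y axis (both log2); red and blue points were called higher and lower in the joint fit, and grey points were not called. Among them At3g15450 fell by about 7 in each genotype, and the largest rise, At5g42760, was 6.06 in Col and 6.60 in vte2.

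The shift was measured separately in Col and vte2, and the genotypes were compared by an interaction term. No probe set passed the test for a difference of the shift between vte2 and Col in limma, where 896 had an unadjusted p under 0.05 and the lowest adjusted p was 0.236. This fit has 2 residual degrees of freedom, and a miss of the threshold does not show that the shifts were equal. With the spread taken from all 18 arrays, 80 probe sets passed, and without vte2 replicate 1 or 2 there were 71 or 105. The 0 h arrays had spread more than the chilled ones in earlier results, so the 80 can be too many.

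The largest falls took genes from the upper part of the scale to its lower end. At3g15450, which heads the list of genes known to rise in darkness or at low sugar, stood at 11.40, 11.25, 11.29 and 11.61 (log2) in Col replicates 1 and 2 and vte2 replicates 1 and 2, and at 4.18 and 4.44 in Col and vte2 replicate 3. The 4 arrays lay within 0.36 of each other and about 7 log2 units above replicate 3, a difference of -7.08 (standard error, SE, 0.15, limma adjusted p = 4.50e-05). At5g61590 encodes DEWAX, an ERF-type repressor of cuticular wax synthesis that is known to rise in darkness. It was at 10.55, 10.81, 11.17 and 10.74 in the same 4 arrays and at 3.28 and 4.3 in replicate 3 (-7.03, SE 0.23, limma adjusted p = 8.60e-05). ATG8E, a ubiquitin-like protein that coats the autophagosome membrane, was at 8.66, 9.05, 9.85 and 10.01 against 4.67 and 4.66, a difference of -4.73 (SE 0.27, limma adjusted p = 3.77e-04). The groups were separate in each of these genes, and the vte2 arrays of replicates 1 and 2 held the higher ATG8E levels.

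The other genes among the 10 largest falls have no role given in the annotation used here: At5g19120 (-6.48), At2g30600 (-6.01), At2g20670 (-5.78), At1g23390 (-5.28), At3g15630 (-5.23), At3g62550 (-4.96) and At3g62950 (-4.64). Across these 10 genes, levels ran from 7.32 to 11.63 in replicates 1 and 2 and from 2.81 to 5.45 in replicate 3, and the 4 arrays of a gene spanned between 0.33 and 1.35. A second, brighter probe set of At2g30600 had a difference of -4.82 (log2).

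The largest rises were the reverse, from the lower or middle part of the scale to its upper part. At5g42760 was at 4.33, 4.63, 4.05 and 3.37 in Col replicates 1 and 2 and vte2 replicates 1 and 2, and at 10.55 and 10.31 in Col and vte2 replicate 3 (6.33, SE 0.24, limma adjusted p = 9.30e-05). HYH, the bZIP homolog of the light-signalling factor HY5, was at 4.98, 5.43, 5.39 and 3.83 against 9.44 and 9.24, a difference of 4.43 (SE 0.42, limma adjusted p = 0.00186). It was the 1 gene measured of the 20 on the list of light signalling and photoprotection genes. In both genes the replicate 3 arrays lay close together, and vte2 replicate 2 was the lowest of the 6.

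The other large rises were At5g54130 (5.37, and 5.09 with a second, brighter probe set), At2g27420 (5.31), At3g15310 (4.79), At5g15950 (4.53), At1g60590 (4.40), At2g15020 (4.19), At1g05170 (3.83) and At5g47610 (3.83), none with a role in the annotation used here. The call of At1g60590 was lost without Col replicate 3 (adjusted p = 0.0511) or vte2 replicate 3 (adjusted p = 0.0667), while the other 19 of these 20 genes were called with each single array left out. The 10 genes had levels of 3.37 to 7.92 in replicates 1 and 2 and of 8.83 to 11.91 in replicate 3.

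**Figure D2:**
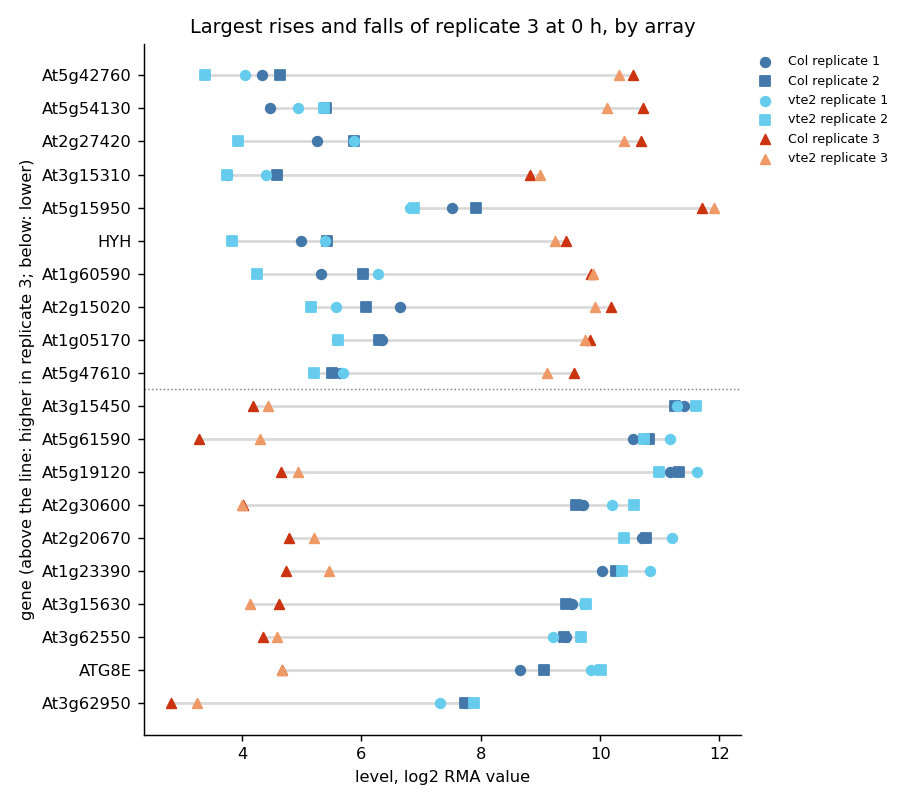
Levels (x axis, log2 RMA values) of the 10 genes with the largest rises and the 10 with the largest falls of replicate 3, 1 row per gene and 1 symbol per array at 0 h (circles replicate 1, squares replicate 2, triangles replicate 3; dark symbols Col, light symbols vte2). The genes were chosen for this separation, and the 4 arrays of replicates 1 and 2 spread more in several rises, up to 2.02 in At1g60590, than in the falls.

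Of 39 listed genes known to rise in darkness or at low sugar, 11 were measured. Of these 11, 5 were lower, none was higher, and the median difference was -1.19. Over all probe sets 7.49% were called higher and 5.43% lower, and these shares stand beside every list count below. Next to At3g15450 and At3g62550, At2g32150 was at 10.29, 10.23, 9.36 and 10.34 in the 4 arrays and at 5.30 and 6.37 in replicate 3 (-4.22, SE 0.40, limma adjusted p = 0.00184). AKINBETA1, a regulatory subunit of SnRK1, was at 9.18, 9.21, 9.28 and 9.82 against 6.81 and 6.39 (-2.77, SE 0.24, limma adjusted p = 0.00142). MCCA, a subunit of the mitochondrial methylcrotonyl-CoA carboxylase that breaks down leucine, was at 7.86, 7.82, 7.79 and 8.93 against 6.18 and 6.23 (-1.90, limma adjusted p = 0.0122). No array of replicate 3 reached the lowest of the other 4 in these 3 genes. The other 6 measured members differed by -1.19 to -0.03 and did not pass.

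Autophagy and amino acid breakdown were followed through whole gene families, drawn up after values had been seen. Of the 9 ATG8 genes, 5 were lower and 1 was higher, with a median of -0.59. ATG8H (-1.10, limma adjusted p = 0.00736) and APG8A (-0.78, limma adjusted p = 0.0304) were lower, whereas ATG8D rose, at 5.19, 5.56, 5.80 and 5.83 against 6.96 and 7.39 (1.58, SE 0.16, limma adjusted p = 0.00219). After ATG8E, ATG8H had the largest fall of the family. Of 8 genes of branched-chain amino acid breakdown, MCCA and ETFBETA (-0.76, limma adjusted p = 0.0396), a subunit of the mitochondrial electron transfer flavoprotein, were lower and none was higher, with a median of -0.50. IVD, the isovaleryl-CoA dehydrogenase that also hands electrons to this flavoprotein, had a difference of -1.19 (limma adjusted p = 0.0516). The calls of MCCA, APG8A and ETFBETA rested on several arrays. Without Col replicate 3 their adjusted p was 0.0866, 0.218 and 0.251, and without vte2 replicate 3 it was 0.146, 0.199 and 0.237. MCCA was also not called without Col replicate 1 (0.0571) or 2 (0.0510), APG8A without Col replicate 2 (0.0832), and ETFBETA without Col replicate 1 (0.0765), Col replicate 2 (0.123) or vte2 replicate 2 (0.0558). ATG8H was not called without Col replicate 3 (0.102) or vte2 replicate 3 (0.0587).

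Genes that sugar is known to induce were not called. Of the 14 listed, 4 were measured and none of these was called, and their median was 0.10. DFR, the dihydroflavonol reductase of anthocyanin synthesis, was at 4.52, 4.34, 3.85 and 4.26 in replicates 1 and 2 and at 3.76 and 5.0 in replicate 3. APL3, a large subunit of ADP-glucose pyrophosphorylase, was at 4.85, 5.47, 5.42 and 4.57 against 5.75 and 6.50, a difference of 1.04 that did not pass (limma adjusted p = 0.103). Flavonoid glycosylation genes were among the rises. UGT78D2, a flavonoid 3-O-glucosyltransferase, was at 7.34, 7.54, 7.41 and 6.64 against 11.17 and 10.90 (3.80, SE 0.23, limma adjusted p = 4.69e-04). UGT78D1, which adds rhamnose to flavonols, was at 7.66, 7.69, 8.29 and 7.53 against 9.08 and 9.51 (1.5, limma adjusted p = 0.00872), although its call was lost without Col replicate 3 (0.0820) or vte2 replicate 3 (0.109). UGT78D3, at -0.06, did not pass, which leaves 2 rises and no fall in 3 members of this family.

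Sugar transport moved in both directions. SWEET proteins carry sugars down their gradient, and of 14 measured 4 were higher and 1 was lower, with a median of 0.00. The shares over all probe sets were 7.49% higher and 5.43% lower. SWEET11, which releases sucrose from phloem parenchyma on its way to the sieve tubes, was at 10.56, 10.55, 10.13 and 10.19 against 11.76 and 11.54 (1.29, SE 0.13, limma adjusted p = 0.00254). SWEET2, a vacuolar member, rose by 1.61 (limma adjusted p = 0.00254) and SWEET13 by 1.58 (limma adjusted p = 0.0145). SWEET16, another vacuolar member, fell from 4.75, 5.08, 5.10 and 5.78 to 3.78 and 3.52 (-1.53, SE 0.27, limma adjusted p = 0.0151). The general list held 12 sugar transporters, of which 6 were measured. Among these, SWEET11 and the tonoplast carrier TMT2 (0.96, limma adjusted p = 0.0163) were higher and SWEET16 was lower. SWEET13, TMT2 and SWEET16 were not called without Col replicate 3 (0.0617, 0.165 and 0.0531) or vte2 replicate 3 (0.168, 0.119 and 0.170). SWEET13 and TMT2 were also not called without Col replicate 1 (0.0622 and 0.0635), and SWEET13, TMT2 and SWEET16 without Col replicate 2 (0.0505, 0.0561 and 0.0645). Among genes of starch breakdown, PWD, the kinase that phosphorylates starch already marked by a first kinase, was at 6.18, 6.49, 6.57 and 6.01 against 8.42 and 8.57 (2.19, SE 0.20, limma adjusted p = 0.00174). DPE1, the plastid enzyme that disproportionates maltotriose, had a difference of 0.97 (limma adjusted p = 0.0529), and neither of the 2 measured genes of starch and sucrose synthesis passed.

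**Figure D3:**
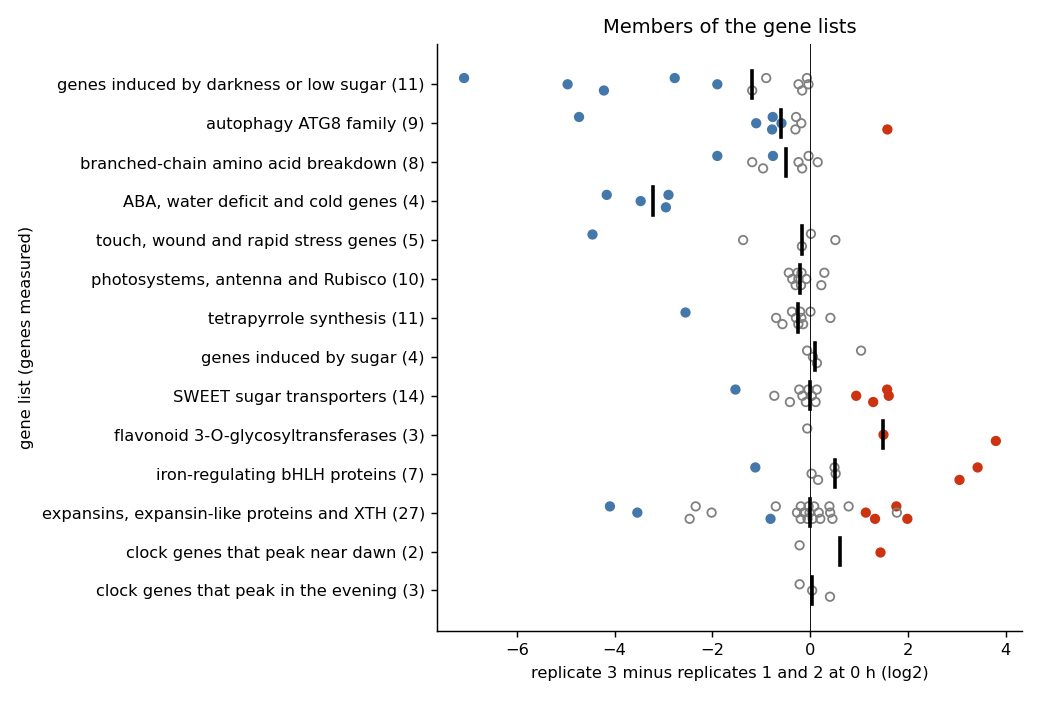
Difference between replicate 3 and replicates 1 and 2 at 0 h (x axis, log2) for each measured member of 14 gene lists (y axis, number of genes in parentheses); red and blue points were called higher and lower, open points were not called, and the black bar is the list's median. The called points of the darkness and low sugar list and of the cold list all lie left of 0, while those of the SWEET, iron and wall lists lie on both sides.

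Of the circadian clock genes measured, 1 of 5 was called. GI, which peaks in the evening, was at 6.31, 6.53, 5.75 and 6.57 in replicates 1 and 2 and at 6.35 and 6.31 in replicate 3 (0.04, SE 0.24, limma adjusted p = 0.952). COR27, a cold- and clock-regulated gene that also peaks late in the day, was at 3.17, 3.31, 2.94 and 2.88 against 3.51 and 3.46 (0.41, limma adjusted p = 0.132). At4g33980, the third gene of the evening list, had a difference of -0.21 and did not pass. Of the 2 genes of the dawn list, At5g52660 was at 6.19, 5.99, 6.34 and 6.39 against 7.71 and 7.61 (1.43, SE 0.16, limma adjusted p = 0.00297), and At1g69570 had a difference of -0.22 (limma adjusted p = 0.736). The evening genes were at or below 6.57 in all 6 arrays, and their groups overlapped for GI and At4g33980 but not for COR27. These 5 genes are a small part of the 37 on the clock lists, and none of the 6 genes that peak by day had a probe set that could be named.

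Photosynthesis genes of the nucleus did not pass in either direction. Of 45 genes listed for the photosystems, their antennae and Rubisco, 10 were measured. None of these was called, the differences ran from -0.44 to 0.29, and the median was -0.21. LHCB4.2, an antenna protein of photosystem II, was the furthest from 0 at 12.99, 13.01, 12.93 and 13.09 against 12.62 and 12.52 (-0.44, SE 0.14, limma adjusted p = 0.0944). These levels, between 10.38 and 13.63 over the list, include RCA, the Rubisco activase fixed as a mesophyll marker, at 13.30 to 13.56 in replicates 1 and 2 and at 13.63 and 13.61 in replicate 3. Of 15 genes on the chlorophyll and carotenoid list 3 were measured, of which 1 was higher and 1 lower (median -0.29). Of 11 genes of tetrapyrrole synthesis 1 was lower and none higher (median -0.24). The lower one was PORB in both lists, a light-dependent protochlorophyllide reductase, at 11.16, 10.90, 10.28 and 11.18 against 8.42 and 8.22 (-2.56, SE 0.26, limma adjusted p = 0.00238). LYC, the lycopene beta-cyclase of carotenoid synthesis, was higher by 0.97 (limma adjusted p = 0.0396), a call lost without Col replicate 1, 2 or 3 (0.130, 0.101 and 0.218) or vte2 replicate 3 (0.269) and after cyclic loess (0.0540).

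Of the 25 genes on the ABA, water deficit and cold list 4 were measured, and all 4 were lower, with a median of -3.21. COR15A, which protects the chloroplast envelope in the cold, was at 11.78, 11.51, 11.25 and 10.66 against 7.52 and 8.15 (-3.47, SE 0.33, limma adjusted p = 0.00186), and its neighbour COR15B at 9.23, 8.94, 8.50 and 7.72 against 5.52 and 5.78 (-2.95, SE 0.34, limma adjusted p = 0.00359). The dehydrin COR47 was at 12.07, 12.03, 10.59 and 11.14 against 8.46 and 8.66 (-2.90, limma adjusted p = 0.00337). The dehydrin LTI30 was at 9.65, 9.75, 6.18 and 7.81 against 4.09 and 4.28 (-4.16, SE 0.70, limma adjusted p = 0.0126), and it was not called without Col replicate 1, 2 or 3 (0.0630, 0.0548 and 0.0986). For each of the 4 genes both Col arrays of replicates 1 and 2 stood above both vte2 arrays, which in turn stood above replicate 3. COR15A and COR15B are close copies, so their separate values are uncertain.

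Of 26 touch, wound and rapid stress genes 5 were measured, of which 1 was lower and none higher, with a median of -0.17. It was CML38, a calmodulin-like protein induced by wounding and low oxygen, at 9.19, 9.54, 8.15 and 6.75 against 3.93 and 3.96 (-4.46, SE 0.53, limma adjusted p = 0.00405); of 7 calmodulin-like genes it was also the only one called. STZ, a zinc finger repressor of rapid stress responses, was at 9.38 and 9.79 in Col replicates 1 and 2 but at 6.89 and 7.09 in the vte2 arrays and at 7.02 and 6.81 in replicate 3, and did not pass (limma adjusted p = 0.140). Of 9 U-box ubiquitin ligases, PUB23 and PUB22, which damp immune signalling, were lower (-2.90 and -1.01) and PUB19 was higher, at 5.54, 5.72, 4.72 and 4.93 against 8.22 and 7.67 (2.72, SE 0.15, limma adjusted p = 3.65e-04). WRKY22 was lower (-2.11, limma adjusted p = 0.0203) and WRKY20 higher by 0.67 (limma adjusted p = 0.0280) among 6 WRKY factors. PUB23, PUB22, WRKY22 and WRKY20 were not called without Col replicate 1 (0.0815, 0.0834, 0.0818 and 0.0869), Col replicate 2 (0.0698, 0.0907, 0.0724 and 0.102) or Col replicate 3 (0.192, 0.255, 0.132 and 0.248). The last 3 were also not called without vte2 replicate 3 (0.125, 0.192 and 0.138).

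Cell wall genes moved in both directions. Of the 4 measured on the wall expansion list 1 was higher (median 0.89), and of 27 expansins, expansin-like proteins and XTH enzymes, which loosen or rejoin wall polymers, 4 were higher and 3 were lower, with a median of -0.01. Among all probe sets 7.49% were higher and 5.43% lower. The largest falls were those of EXLA1 and XTH18. EXLA1 was at 10.77, 10.90, 11.95 and 9.54 against 6.26 and 7.13 (-4.10, SE 0.62, limma adjusted p = 0.00894), and XTH18 at 7.93, 8.28, 8.70 and 6.44 against 4.25 and 4.36 (-3.54, SE 0.58, limma adjusted p = 0.0113). Within replicates 1 and 2, vte2 replicate 1 was the highest and vte2 replicate 2 the lowest of the 4 in both genes. The rises were EXLB1 (1.99, limma adjusted p = 0.00584), EXPB3 (1.76, limma adjusted p = 0.0111), EXPA8 (1.33, limma adjusted p = 0.00450) and EXPA15 (1.14, limma adjusted p = 0.00537). EXPA8 was at 7.37, 7.51, 6.59 and 6.25 against 8.90 and 7.62, and thus above both arrays of its own genotype by more than 1 in Col and in vte2. EXLA1 was not called without either replicate 3 array (0.118 for Col and 0.0698 for vte2). XTH18 was not called without Col replicate 1, 2 or 3 (0.0563, 0.0529 and 0.135) or vte2 replicate 3 (0.0908), and EXLB1 and EXPB3 without vte2 replicate 3 (0.0515 and 0.136).

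The unequal spread was not limited to wall genes. Called or not, 355 probe sets were more than 4-fold lower in replicate 3, and the 4 arrays of replicates 1 and 2 spanned more than 2 log2 units in 102 of them and less than 1 in 138. Of the 219 that were more than 4-fold higher, 19 spanned more than 2 and 113 less than 1. At3g15450 belongs to the narrow kind, and CML38, LTI30, EXLA1 and XTH18 to the wide kind. Among the 355, the array nearest to replicate 3 was vte2 replicate 1 in 125, vte2 replicate 2 in 124, Col replicate 1 in 82 and Col replicate 2 in 24.

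Iron and auxin genes held large single changes. PYE, a bHLH factor of the iron deficiency response, was at 4.49, 5.17, 4.38 and 4.73 against 7.94 and 8.29 (3.43, SE 0.25, limma adjusted p = 8.64e-04). The related bHLH34 was at 6.11, 6.25, 5.10 and 5.72 against 9.16 and 8.54 (3.06, SE 0.20, limma adjusted p = 6.28e-04). bHLH121, an activator of the same response, was lower, at 8.11, 8.05, 8.48 and 8.24 against 7.22 and 6.98 (-1.12, limma adjusted p = 0.00963), a call lost without vte2 replicate 3 (0.115). Of the 7 bHLH factors of iron supply measured, the other 4 were not called, BHLH101 among them at 3.21 to 3.48 in all 6 arrays. Among 17 auxin genes, IAGLU, which conjugates auxin to glucose, was at 5.31, 5.70, 4.98 and 4.77 against 8.70 and 8.71 (3.51, SE 0.21, limma adjusted p = 4.45e-04), and YUC6, an enzyme of auxin synthesis, was higher by 0.74 (limma adjusted p = 0.0223). IAA29, an auxin-responsive gene that also rises in shade, was lower (-1.23, limma adjusted p = 0.0284), and it was the 1 gene measured of the shade and dark growth list. YUC6 and IAA29 were not called without Col replicate 1 (0.0778 and 0.104), 2 (0.0868 and 0.0907) or 3 (0.224 and 0.208) or vte2 replicate 3 (0.105 and 0.195).

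Lists for heat shock (2 genes), cytokinin response regulators (2), defence (2), glucosinolates (1), ribosome biogenesis (1), senescing leaves (1) and guard cells (1) had no member called, with medians of 0.76, 0.11, 0.03, 0.41, -0.17, 0.40 and 0.46. The counts in parentheses are of measured genes. The guard cell gene FMA, which was at 5.47 to 5.97 in replicates 1 and 2 and at 6.18 and 6.26 in replicate 3, and the senescence gene SAG29, at 3.77 to 4.15 against 4.51 and 4.28, did not pass (limma adjusted p = 0.139 and 0.142). No gene of the jasmonate or nitrogen and sulfur lists, and no marker of phloem companion cells, meristem, root, flower or seed, had a probe set that could be named. In RNA of whole leaves, fewer cells of a type and less RNA per cell cannot be told apart.

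The replicate 3 arrays of the other time points were used to ask whether the shift belonged to the replicate number. In 1 model over all 18 arrays, replicate 3 differed from replicates 1 and 2 in 38 probe sets at 48 h (9 higher and 29 lower) and in none at 120 h, where 290 had an unadjusted p under 0.05 in limma. These 290 are fewer than that threshold gives by chance over 22810 probe sets. The lack of calls at 120 h therefore does not show that no shift was there. The shift at 0 h differed from that at 48 h in 4286 probe sets (18.8%) and from that at 120 h in 3375 (14.8%), and 2702 and 2642 of the 2946 probe sets called at 0 h were among them. Over those 2946 the median size of the replicate 3 shift was 1.17 at 0 h, 0.17 at 48 h and 0.08 at 120 h (log2). All 20 genes with the largest changes at 0 h differed from both later shifts, and the largest of their later shifts was 0.64 at 48 h and 0.19 at 120 h in size. The 2946 probe sets and these 20 genes were chosen by their 0 h shift, which enters both differences. That they differed was thus largely set by the choice and is no separate support, while the later shifts took no part in it. The counts of 4286 and 3375 share this limit in part, because the 0 h arrays were divided after they had been seen to stand apart. The number of calls against 48 h was 2434 without Col replicate 3 of that time. Against 120 h it was 1761 without the array labelled Col replicate 3 and 1849 without that labelled vte2 replicate 3. The genotype labels at 120 h were in doubt, and the model took them as given. What this did to its spread was not tested.

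The chilled leaves, which the choice of arrays did not use, were set beside both groups at 0 h. For At3g15450 the 6 arrays at 48 h averaged 5.74 and those at 120 h 5.46, nearer to replicate 3 than to the other unchilled leaves, and for ATG8E the averages were 6.47 and 6.58. HYH averaged 9.02 and 8.17, and UGT78D2 10.02 and 9.83, again nearer to replicate 3. COR15A went the other way, with averages of 13.35 and 13.04 in chilled leaves, above all unchilled arrays. The other genes of its list did not all do so: COR47 averaged 11.81 at 48 h and 9.72 at 120 h, the latter nearer to replicate 3. At2g27420 averaged 4.59 and 5.47, at the level of replicates 1 and 2. Of the probe sets called lower in replicate 3, 50.1% had a 48 h mean and 68.4% a 120 h mean nearer to replicate 3 than to replicates 1 and 2. For those called higher these shares were 31.3% and 43.0%, and over all probe sets they were 48.1% and 52.2%. The 3 sets share the same arrays, and the shares are given without a test.

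**Figure D4:**
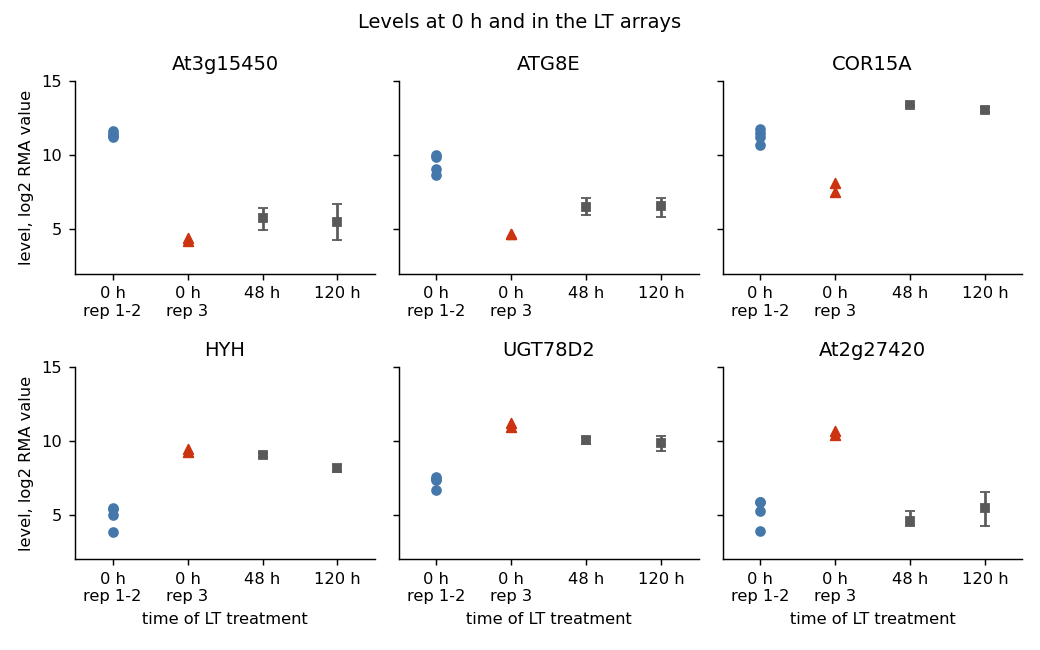
Levels (y axis, log2 RMA values) of 6 genes in the 4 arrays of replicates 1 and 2 at 0 h (blue points), the 2 of replicate 3 at 0 h (red triangles) and the 6 arrays at 48 h and 120 h of LT treatment (grey squares are means, bars run from the lowest to the highest array). At3g15450, ATG8E, HYH and UGT78D2 stood nearer to replicate 3 in chilled leaves, COR15A was highest in chilled leaves, and At2g27420 was high in replicate 3 alone among these groups.

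Plastid-encoded transcripts and ribosomal RNA divided the arrays in another way. Of 33 plastid-encoded photosynthesis subunits, 3 were higher and 1 was lower in replicate 3, with a median of 0.17. Among all probe sets 7.49% were higher and 5.43% lower. In 15 of the 33, however, both Col arrays of replicates 1 and 2 lay below all 4 others, as they did in 2113 (9.26%) of all probe sets. psaA, a core protein of photosystem I that was chosen after its values were seen, was at 6.68 and 6.96 in those 2 arrays, at 11.30 and 11.50 in vte2 replicates 1 and 2 and at 11.67 and 11.65 in replicate 3. The same held for 7 of 10 plastid NDH subunits, of which none was called, and for 7 of 19 plastid ribosomal proteins and RNA polymerase subunits, of which 2 were higher and 2 were lower. rpoB, a subunit of the plastid RNA polymerase, was higher by 1.21 (limma adjusted p = 0.0236), a call lost without Col replicate 2 or 3 (0.0674 and 0.127) or vte2 replicate 3 (0.221). The control probe set for 25S ribosomal RNA was at 9.79 and 9.73 in Col replicates 1 and 2, at 6.21 and 5.79 in vte2 replicates 1 and 2 and at 3.81 and 3.89 in replicate 3, against 4.05 to 6.37 in the 12 chilled arrays. With both Col arrays of replicates 1 and 2 left out and the genotype term dropped, so that Col replicate 3 was set against vte2 arrays, 1680 probe sets were called; this fit was chosen after these values were seen.

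The hybridization spike-ins, bacterial and phage transcripts added in fixed amounts to each labelled sample, also separated replicate 3. The mean of their 18 probe sets was 9.17, 9.05, 9.16 and 9.25 in Col replicates 1 and 2 and vte2 replicates 1 and 2, and 9.997 and 10.25 in Col and vte2 replicate 3, a difference of 0.96, with a range of 8.80 to 9.91 in the chilled arrays. In limma 17 of the 18 were called higher, and these are included in the 1708 probe sets called higher. The 3′ probe set of GAPDH exceeded the 5′ one by 0.87, 0.92, 1.01 and 0.83 in the 4 arrays and by -0.17 and 0.38 in replicate 3, while the same measure for actin overlapped between the groups. A second pair of GAPDH control probe sets set apart Col replicate 3 but not vte2 replicate 3. Its 3′ and 5′ sets were at 10.70 and 11.10 in vte2 replicate 1 and at 11.10 and 11.42 in vte2 replicate 3. The difference in vte2 replicate 3 lay within the range of replicates 1 and 2. In Col replicate 3 the sets were at 10.95 and 11.50. There the 3′ set lay further below the 5′ one than in any other of the 6 arrays. In an exact permutation test over the 6 arrays (two-sided), 25S ribosomal RNA, the spike-ins and the first GAPDH measure each gave p = 0.133, the smallest value that 2 arrays against 4 allow. The part of these differences in the shift of the genes was not tested.

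**Figure D5:**
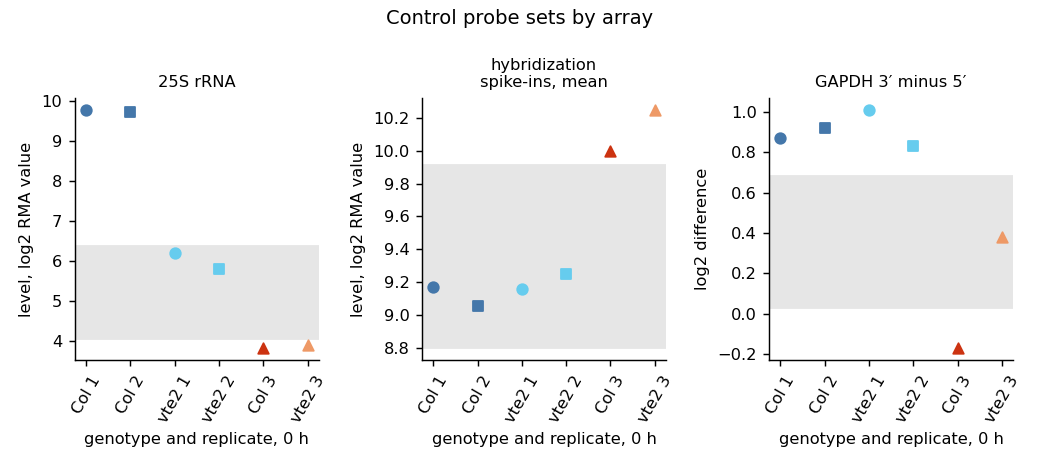
The 25S ribosomal RNA control probe set, the mean of the hybridization spike-ins (both log2 RMA values) and the difference between the 3′ and 5′ probe sets of the first GAPDH pair (log2), 1 symbol per array at 0 h. Grey bands span the 12 chilled arrays. Replicate 3 (triangles) had the lowest 25S ribosomal RNA and the highest spike-in values of the 6, and Col replicates 1 and 2 stood apart in 25S ribosomal RNA alone of these measures.

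Genes called higher were longer in the median than all genes, but those that rose over 4-fold were shorter. The median length of the gene in the RefSeq annotation (TAIR10.1) was 2516 bases for 844 genes called higher, 2076 for 649 called lower and 2107 for all 13264 genes with a length. Among changes over 4-fold it was 1836 bases for 100 rises and 1895 for 150 falls. These are given as a description. The 3′ to 5′ measure of the first GAPDH pair moved with the same arrays, while that of the second did so for Col replicate 3 only. A link between these measures and gene length was not tested.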

How the data were processed

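The authors made the deposited log2 values from Affymetrix ATH1 arrays with RMA in the affy package: background adjustment of perfect match probes, quantile normalization over all 18 arrays and summary per probe set. Quantile normalization gives all arrays nearly the same distribution, so a global change would not be seen. The values were used as deposited. No genome build is given for the deposited values. Locus names and gene lengths came from the RefSeq annotation (TAIR10.1). Of 22810 probe sets (64 controls), the platform table gave a single gene for 13513, several for 503, and did not list 8794; unlisted probe sets were counted but not named. In the gene lists and lengths, a gene on more than 1 probe set was represented by the brightest on average over the 6 arrays. For the 10 largest rises and the 10 largest falls, the called probe set with the largest difference was used.

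Replicate 3 and genotype were the terms of a limma fit (version 3.58.1, R 4.3.3) (3 residual degrees of freedom), default moderation and Benjamini-Hochberg adjustment over all probe sets at 0.05. Differences between genotypes came from an interaction term, and those between time points from 1 model over the 18 arrays (9 residual degrees of freedom). The 0 h arrays had spread more than the chilled ones in earlier results. Counts of 0 h shifts set against the spread of all 18 arrays can therefore be too high. The steps were tested on simulated data. The arrays, genes and lists were chosen with earlier results of these data known. Family lists by symbol were drawn after values were seen. Genes were named if among the 10 largest rises or falls with groups that did not overlap, if a clock gene, or if among the largest changes of a list; STZ, UGT78D3, psaA, RCA, BHLH101, FMA, SAG29 and similar uncalled members were added as context. Promoter motifs were not examined here. Alternatives covered normalization, a filter of the 40% dimmest probe sets, weights, prior, arrays in the fit and leaving out each array; those without both Col or both vte2 arrays, which also drop the genotype term, were added after seeing the data.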

Additional observations from a re-analysis of the deposited data

Results flagged for a closer look

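In 3 of the 74 named genes, 1 of the 4 arrays of replicates 1 and 2 stood apart from the rest by more than Dixon's 95% critical value, which chance gives to about 1 in 20 groups. At2g32150 was lowest in vte2 replicate 1, at 9.36 (log2). AKINBETA1 was highest in vte2 replicate 2, at 9.82, as was MCCA, at 8.93. The replicate 3 shift at 0 h differed by a test of the difference from that at 48 h in 4286 probe sets and from that at 120 h in 3375. The 0 h arrays had been divided after they were seen to stand apart, so these counts are not independent of that choice. The hybridization spike-ins, which measure no plant gene, were higher in replicate 3 by 0.96 (log2) on average. They were among the probe sets fitted, so their calls are part of the counts over all probe sets. Their part in the shift was not tested.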

How the results depend on the processing

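The comparison of replicate 3 with replicates 1 and 2 gave 2946 calls, and it gave 6045 when all 18 arrays set the spread, 4597 without both vte2 arrays of replicates 1 and 2 and 1680 without both Col arrays (each also without the genotype term), and 783 to 3735 with each array left out; the cause was not tested, beyond that other arrays or terms entered. The difference of the shift between vte2 and Col had no calls, 1 with a trended and robust prior, 80 with all 18 arrays, and 0 to 105 with each array of replicates 1 and 2 left out. The calls against the 48 h shift (4286) ran from 2434 to 5120 and those against the 120 h shift (3375) from 1761 to 4313 with each array left out. Normalization, the filter, weights, the prior and the genotype term moved none of the remaining counts over all probe sets by more than 1.5 times. The counts of called list members were less stable: 108 of 434 moved by more than that or to or from 0, of which 57 of 174 with 1 array left out, 21 of 58 with 2 left out and no genotype term, 14 of 29 with all 18 arrays and 16 of 173 under the other settings. The uncalled differences of 4 genes changed sign: GI was at -0.051 after cyclic loess, -0.00056 after median centring, -0.149 to 0.202 with each array left out and -0.089 without both vte2 arrays; DFR at -0.669 to 0.948 with each array left out and -0.048 without both vte2 arrays; At1g69570 at -0.427 to 0.014 and At4g33980 at -0.498 to 0.069 with each array left out. Of 1107 values of 74 named genes under the alternatives, 128 lost a call, 120 of them with arrays left out. No paired analysis was possible because the replicate number is itself what was compared, so a replicate block cannot be told apart from it.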
